A study of Homo sapiens with 2 samples.

Results

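The cytochrome P450 family outside the CYP1 enzymes was examined together with POR, the reductase that serves it, in HepG2, a human hepatoma cell line. Members were taken from the array annotation by name alone, as symbols of the form CYP, number, letter and number, with the CYP1 family and CYP51A1 left out and POR added. This gave 50 genes, 49 with a P450 symbol and POR, measured by 79 probes, of 20039 named genes on the array. HepG2 cells had been exposed for 4 h to 40 µM berberine chloride, a plant alkaloid, or to 0.08% DMSO as the vehicle control. Labeled cRNA from total RNA of each group was hybridized to 1 Illumina BeadChip array, and slide position is not in the labels. With 1 array per group no difference below has a replicate check, and no test between the groups could be made. Treatment, culture and array cannot be told apart in this design, and in RNA from whole cultures a smaller number of expressing cells cannot be told apart from less RNA per cell.

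P450 enzymes are heme proteins that insert an oxygen atom into their substrates. Most sit in the endoplasmic reticulum and receive electrons from NADPH through POR, while a few lie in mitochondria and receive them through ferredoxin. In the liver they clear drugs, oxidize fatty acids and eicosanoids, and turn cholesterol into bile acids. Other members make or break down steroid hormones, vitamin D and retinoic acid.

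Both arrays carried the expression of a hepatoma line. All 13 hepatocyte and hepatoma markers on the array were measured, and they had a median log2 difference of -0.04. No marker of fibroblasts (0 of 6) or endothelial cells (0 of 5) was detected on either array. Of the immune cell markers, 4 were on the array, and 1 of them, LYZ, was measured. A probe was called detected at a detection p under 0.01, that is, when fewer than 1% of the 770 negative-control values on its array were as bright. This held for 15341 of 47231 probes in control and 15415 in treated cells.

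HepG2 cells expressed few P450 genes above background, and hardly any of those that oxidize drugs. Of the 50 members, 13 (26.0%) were detected on both arrays, compared with 45.6% of all named genes. These were POR and the P450 genes CYP2J2, CYP2W1, CYP4F2, CYP4F3, CYP4F11, CYP4F12, CYP11A1, CYP20A1, CYP24A1, CYP27A1, CYP27B1 and CYP39A1. A further 2 members, CYP4V2 and CYP2D7, were detected on the control array only. The remaining 35 members, with 57 probes, were detected on neither array.

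**Figure D1:**
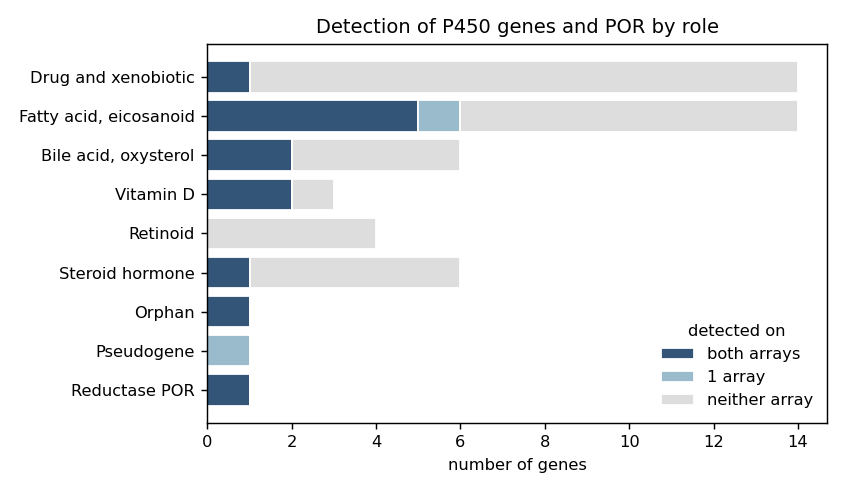
Number of member genes by role (vertical axis) that were detected on both arrays, on 1 array or on neither at a detection p under 0.01. The drug and xenobiotic group had 1 of 14 genes detected on both arrays, and the fatty acid and eicosanoid group 5 of 14.

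Among 14 P450 genes of drug and xenobiotic metabolism, CYP2W1 was the 1 gene measured on both arrays. CYP3A4, the main drug-metabolizing P450 of adult liver, was at background, with detection p-values of 0.252 in control and 0.826 in treated cells. CYP3A7, the fetal liver form, had 0.286 and 0.152, and CYP3A5 had 0.0805 and 0.105. Neither CYP2E1, which oxidizes ethanol (0.238 and 0.53), nor CYP2C8, which oxidizes paclitaxel (0.0649 and 0.444), was detected. The same was true of CYP2A6, CYP2A7, CYP2A13, CYP2B6, CYP2D6, CYP2F1, CYP2S1 and CYP3A43. None of these 13 genes was detected in treated cells either, so no induction of them was detectable at this signal over background.

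In the fatty acid and eicosanoid group, 5 of 14 genes were measured on both arrays, and CYP4V2 on the control array only. CYP2U1, CYP4A11, CYP4A22, CYP4B1, CYP4F8, CYP4F22, CYP4X1 and CYP4Z1 were not detected. Of the 6 genes of bile acid and oxysterol metabolism, CYP27A1 and CYP39A1 were measured. CYP7A1, which starts the classic route of bile acid synthesis (0.868 and 0.764), and CYP8B1, which sets the share of cholic acid (0.0195 and 0.0532), were not detected, nor were CYP7B1 and CYP46A1. Of 3 vitamin D genes, CYP24A1 and CYP27B1 were measured and the 25-hydroxylase CYP2R1 was not.

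None of the 4 retinoid genes, CYP26A1, CYP26B1, CYP26C1 and CYP27C1, was detected. Of 6 steroid hormone genes CYP11A1 was measured, while CYP11B1, CYP11B2, CYP17A1, CYP19A1 and CYP21A2 were not. CYP20A1, a P450 without an established substrate, was measured. Over the 57 probes of all undetected members, the detection p had a median of 0.342 in control cells and 0.326 after berberine. The lowest values were 0.0182 and 0.013, respectively, at CYP26A1 and CYP2U1 probes. These 2 genes and CYP2D7 joined the measured ones at a detection p under 0.05, which gave 16 members.

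Detected genes were also placed by position. By RefSeq, 27 of the 49 genes with a P450 symbol lie in 7 groups of neighbors on the same chromosome, with starts at most 500000 bases apart, and 22 stand alone. Of the neighboring genes 4 were measured, and all 4 belong to the CYP4F group on chromosome 19, where CYP4F3, CYP4F12, CYP4F2 and CYP4F11 were measured and CYP4F22 and CYP4F8 were not. The CYP2 group on the same chromosome (6 genes), the CYP4A, CYP4B, CYP4X and CYP4Z group on chromosome 1 (5 genes) and the CYP3A group on chromosome 7 (4 genes) had no measured gene. Of the genes standing alone, 8 of 22 were measured.

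Sequences upstream of the genes were searched for promoter and receptor motifs, to show what letters lie before the starts of measured and undetected P450 genes. RefSeq start sites of GRCh38.p14 were found for 9 of the 13 measured and 25 of the 35 undetected members, and the 250 bases before each start were searched on both strands. The TATA motif TATAAA was present in 0 of 9 measured and 11 of 25 undetected members, against 11.1% of 27305 genes. AGGTCA, the core motif of many nuclear receptors, was present in 0 of 9 and 10 of 25, against 12.1% of genes. The GC box core GGGCGG was present in 4 of 9 and 8 of 25, against 42.3%, and CCAAT in 4 of 9 and 10 of 25, against 33.0%. The core motif variants AGTTCA (1 of 9 and 3 of 25, against 8.91%), GGTTCA (3 of 9 and 1 of 25, against 7.17%) and GGGTCA (2 of 9 and 5 of 25, against 12.2%) and the E-box CACGTG (0 of 9 and 1 of 25, against 6.49%) were also counted. Neighboring paralogs share sequence, so these genes are not independent, and a match of letters is not a bound site. The upstream sequences of 4 genes are printed, a measured bile acid gene, an undetected drug enzyme and a pair of CYP4F neighbors, 5′ to 3′ on the strand of the gene with every match to these motifs in capitals. CYP27A1 at chr2:218781897-218782146 (plus strand) had 2 copies of GGGCGG, 1 on each strand, and AGTTCA near the far end. The first copy and GGTTCA, both on the strand opposite to the gene, overlapped by 1 base. CYP3A4 had TATAAA near its start and, farther upstream, AGTTCA on the opposite strand, written as TGAACT, followed by AGGTCA, at chr7:99784185-99784434 (minus strand). CYP4F3 at chr19:15641062-15641311 (plus strand) had none of the motifs, and CYP4F11 at chr19:15934868-15935117 (minus strand) had CCAAT on the opposite strand, written as ATTGG.
CYP27A1: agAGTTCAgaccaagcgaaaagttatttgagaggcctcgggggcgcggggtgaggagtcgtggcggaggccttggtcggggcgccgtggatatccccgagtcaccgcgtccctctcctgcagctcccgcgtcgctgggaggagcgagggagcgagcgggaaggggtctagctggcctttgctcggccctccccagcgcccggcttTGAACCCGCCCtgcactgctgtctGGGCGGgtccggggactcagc
CYP3A4: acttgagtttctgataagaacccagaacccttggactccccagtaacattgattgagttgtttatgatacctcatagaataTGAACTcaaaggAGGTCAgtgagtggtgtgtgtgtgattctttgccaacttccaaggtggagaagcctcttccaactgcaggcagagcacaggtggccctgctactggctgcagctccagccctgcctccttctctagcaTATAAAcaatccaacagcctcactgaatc
CYP4F3: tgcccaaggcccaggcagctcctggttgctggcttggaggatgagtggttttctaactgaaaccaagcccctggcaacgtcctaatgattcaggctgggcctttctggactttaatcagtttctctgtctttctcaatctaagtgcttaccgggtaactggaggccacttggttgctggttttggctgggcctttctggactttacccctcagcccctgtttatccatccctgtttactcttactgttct
CYP4F11: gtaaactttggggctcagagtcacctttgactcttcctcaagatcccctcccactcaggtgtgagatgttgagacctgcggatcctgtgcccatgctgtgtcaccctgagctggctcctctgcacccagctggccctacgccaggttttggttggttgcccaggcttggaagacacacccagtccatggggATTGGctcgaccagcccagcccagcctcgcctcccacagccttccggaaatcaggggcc

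To examine which P450 transcripts differed after berberine treatment, both arrays were compared gene by gene. Levels are given as the normalized intensity the authors deposited, which is comparable between the arrays for 1 probe but not between probes. The lowest detected probe had 149.9 (control) and 149.4 (berberine). Log2 differences, berberine minus control, were computed after background correction, and the deposited values, which keep the background and so give smaller folds for dim probes, are set beside them. The only error available came from genes with more than 1 probe. Over 2193 such genes the SD of a single probe was 0.25 on the log2 scale. It was 0.31 where both probes had a non-normalized intensity under 300 and 0.19 where both were at or above that. This SD leaves out the spread between cultures.

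**Figure D2:**
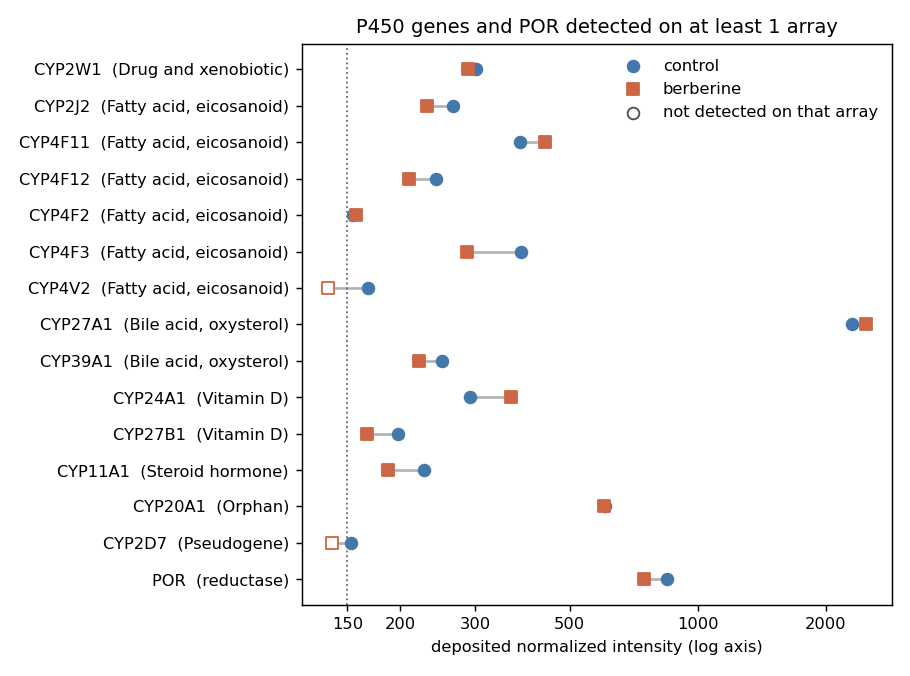
Deposited normalized intensity (horizontal log axis) of the 15 members detected on at least 1 array, with control as circles and berberine as squares, open where the probe was not detected on that array. The dotted line marks the lowest detected intensity on the control array, 149.9, and only CYP4V2 and CYP2D7 have an open square, to its left.

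Differences in the measured members were small. CYP4F3 was over 1.5-fold lower, and 0 of 13 members were over 1.5-fold higher. Past the same threshold, 3.87% of all 9128 measured genes were higher and 4.09% lower, and a single gene of 13 (7.69%) is close to that background. In the deposited values 0 members were over 1.5-fold in either direction. On that scale 1.01% of all genes were lower, and the share that was higher is not given here. The log2 differences of the members ran from -0.63 to 0.48, and 5 of 13 were smaller than the SD of a single probe over all intensities, 0.25. One of these, POR, was not smaller than the SD of probes at or above 300. Most lay on the lower side, with 9 of 13 (69.2%) below 0 and a median of -0.20. Over all measured genes these values were 52.4% and -0.01. Among genes with a mean non-normalized intensity under 500, the median was -0.33 for 10 members and -0.03 for all 5119 genes.

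**Figure D3:**
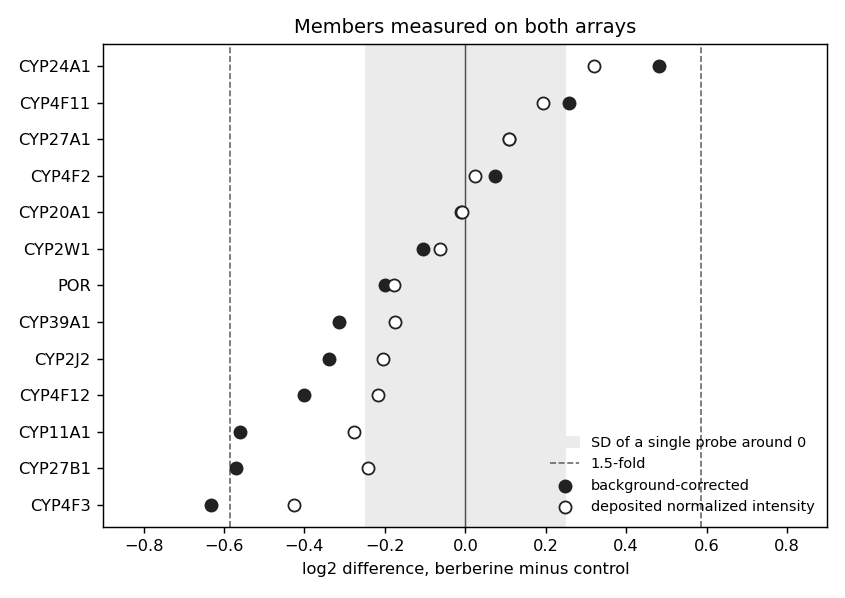
Log2 difference, berberine minus control (horizontal axis), of the 13 members measured on both arrays, after background correction (filled) and in the deposited normalized intensity (open). The gray band is the SD of a single probe, 0.25, on each side of 0, the dashed lines mark 1.5-fold, and CYP4F3 at -0.63 is the one filled point beyond them.

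CYP4F3, the leukotriene B4 omega-hydroxylase, read 384.6 in control and 286.3 in treated cells as normalized intensity. It was 1.55-fold lower after background correction, with a log2 difference of -0.63, and 1.34-fold lower in the deposited values. Among the 9128 measured genes, 294 had a lower difference. This value rests on probe ILMN_1736190. Its other probes were not detected on both arrays at the threshold, and had log2 differences of -0.01 and -0.14.

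The neighbors of CYP4F3 did not share one direction. CYP4F11, which hydroxylates long-chain fatty acids, had 382.6 in control and 437.5 in treated cells, a log2 difference of 0.26, which is 1.20-fold higher. CYP4F12 had 243.0 and 208.9, a difference of -0.40, or 1.32-fold lower. CYP4F2, the vitamin K1 omega-hydroxylase, stayed near the detection limit with 154.4 and 157.0, a difference of 0.07. A second CYP4F2 probe, with detection p-values of 0.0143 and 0.0104, gave 0.13. These genes are close paralogs, so probes may read more than 1 of their transcripts. Upstream of the starts, CYP4F3 and CYP4F11 had 46.2% identical positions over the alignment, gaps counted, and CYP4F2 and CYP4F11 had 64.3%. The undetected CYP4F8 had 65.7% with CYP4F11, 56.1% with CYP4F2 and 49.3% with CYP4F3. CYP4F2 and CYP4F3 had 48.4%. The identity of unrelated sequences was not measured, and a relation to the differences was not tested.

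CYP2J2, an epoxygenase of arachidonic acid, had 266.2 in control and 230.9 in treated cells, with a log2 difference of -0.34 and a 1.15-fold decrease in the deposited values. CYP4V2, a fatty acid hydroxylase mutated in Bietti crystalline dystrophy, had 168.0 in control and 135.4 in treated cells, where its detection value of 0.0506 missed the threshold. It was therefore at least 1.41-fold lower after background correction, or 1.12-fold in the deposited values, against the lowest detected signal of the berberine array. CYP4V2 has 1 probe on the array and lies near the detection limit in control cells, and the bound makes no allowance for the single-probe SD. Over the 5 measured genes of the fatty acid and eicosanoid group, 3 differences were below 0 and the median was -0.34.

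The P450 genes of vitamin D went opposite ways. CYP24A1, which inactivates vitamin D, had 291.1 in control and 363.3 in treated cells, and its log2 difference of 0.48 (1.40-fold higher, 1.25-fold in the deposited values) was the highest of all measured members. CYP27B1, which makes the active hormone, had 197.5 and 167.1, a difference of -0.57, or 1.49-fold lower, and 1.18-fold on the deposited scale. Both genes stayed under 1.5-fold, and CYP27B1 was dim on both arrays. VDR, the vitamin D receptor, was not detected on either array at its 2 probes, with detection values of 0.152 and 0.313 at one and 0.41 and 0.125 at the other.

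CYP27A1, the mitochondrial sterol 27-hydroxylase of the acidic route of bile acid synthesis, read 2301.6 in control and 2481.0 with berberine. Its log2 difference of 0.11 was the same in the deposited values and smaller than the SD of a single probe. CYP39A1, an oxysterol 7-alpha-hydroxylase, had 249.9 and 221.4, a difference of -0.31. Its second probe, with 161.2 and 129.6, was detected in control only. In the deposited values the log2 difference was -0.17 at the first probe and -0.31 at the second, so both probes read lower in treated cells.

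CYP11A1, which cleaves the side chain of cholesterol at the start of steroid hormone synthesis, had 226.9 in control and 187.3 in treated cells. Its difference of -0.56 is 1.48-fold lower, just inside the threshold, and the deposited values gave 1.21-fold. CYP20A1 had 605.2 and 601.7, a difference of -0.01, and its second detected probe, with 428.4 and 459.3, gave 0.14. CYP20A1 was the one measured member with 2 detected probes, and the difference at each was within the single-probe SD. CYP2W1, an extrahepatic P450 found in fetal gut and in tumors, had 300.3 and 287.7, a difference of -0.11, also below that SD. CYP2D7, a transcribed pseudogene nearly identical to CYP2D6, had 153.2 in control and 138.1 in treated cells, where its detection p was 0.0364. Against the lowest detected signal of the berberine array it was at least 1.08-fold lower, or 1.03-fold in the deposited values. This bound makes no allowance for the single-probe SD, and CYP2D7 was near the detection limit in control. Its second probe was detected on neither array (0.0519 and 0.178).

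POR, the NADPH reductase of the microsomal P450s, had 846.3 in control and 748.5 in treated cells. Its log2 difference was -0.20, and -0.18 in the deposited values, close to the SD of 0.19 for single probes of at least 300 in intensity.

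**Figure D4:**
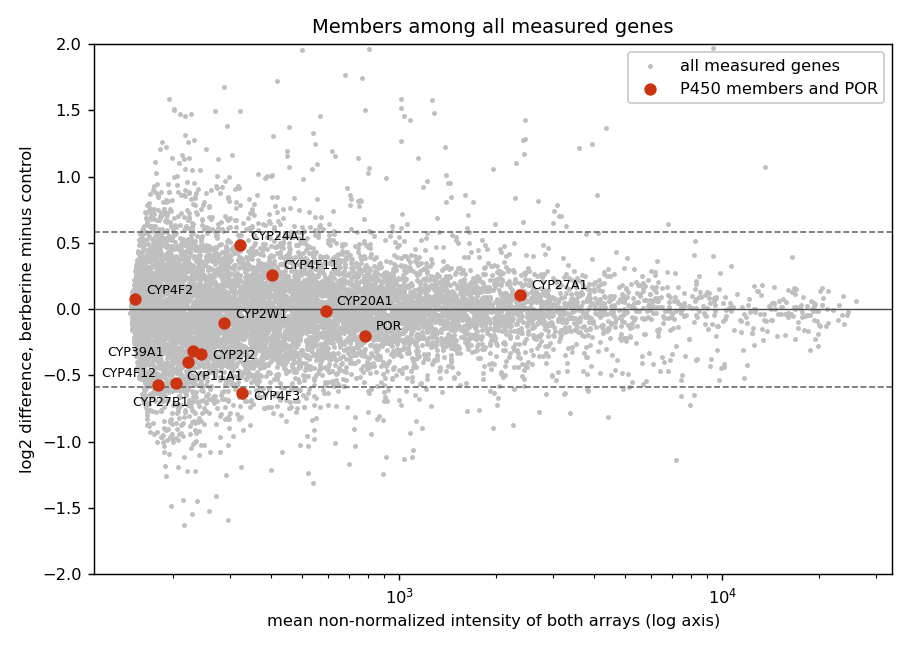
Log2 difference, berberine minus control (vertical axis), against the mean non-normalized intensity of both arrays (horizontal log axis) for all 9128 measured genes (gray) and the 13 measured members (red). Dashed lines mark 1.5-fold, 18 genes lie beyond the plotted range of 2 in either direction and 10 of the 13 members lie under an intensity of 500.

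Of 6 P450 genes outside the rule, 3 were measured, and 0 of them passed 1.5-fold. CYP1A1 and CYP1A2, targets of the aryl hydrocarbon receptor, had -0.19 and 0.28, and CYP51A1, the lanosterol demethylase of cholesterol synthesis, had -0.18. CYP1B1, TBXAS1 and PTGIS were not detected.

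Measured genes on the lists of redox partners and heme synthesis also stayed within 1.5-fold, and of the genes that break heme down HMOX1 passed it. Of 8 redox partner genes on the array, 7 were measured, with 0 higher, 0 lower and a median of -0.06. PGRMC2, a heme-binding partner of P450s, had the largest difference, -0.40 (-0.36 in the deposited values), and FDX2, a mitochondrial ferredoxin, had -0.25 (-0.18). The probe for FDX1, the ferredoxin that serves the mitochondrial P450s, was not detected on either array (0.026 and 0.0221). CYB5A, cytochrome b5, had 0.12. Of 11 heme synthesis genes on the array, all 11 were measured, 0 passed in either direction and the median was -0.10. ALAS1, the first and rate-limiting enzyme of the pathway in liver, had 168.5 in control and 157.1 in treated cells, a difference of -0.29 (-0.10 in the deposited values). FECH, which inserts iron into the ring, had -0.51, CPOX had -0.36, and FLVCR1, a heme exporter of the plasma membrane, had 0.39. In the deposited values these were -0.23, -0.32 and 0.16, so FECH, FLVCR1 and ALAS1, which were dim, depended most on the background correction. Of 4 heme breakdown genes, 3 were measured. HMOX1, the inducible heme oxygenase, had 656.6 and 455.3, a difference of -0.66 or 1.58-fold lower, with 1.44-fold in the deposited values. HMOX2 had 150.8 in control and 149.1 in treated cells, with detection p-values of 0.00779 and 0.0104 on either side of the threshold. Its log2 difference of -0.05 was smaller than the SD of a single probe.

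Transcription factors that govern P450 genes were read against the same shares of all measured genes after background correction, 3.87% higher and 4.09% lower. These shares do not apply to the deposited values, where 1.01% were lower and the higher share is not given. The lists were drawn up with earlier results known. Of 20 nuclear receptor and coactivator genes listed, 14 had a named probe on the array, and NR1I2, NR1H4 and HNF4A were among those that did not. Of the 14 genes, 9 were measured, with 2 over 1.5-fold higher, 1 lower and a median of -0.01. In the deposited values 1 was higher and 0 lower. NR0B2, also called SHP, a receptor without a DNA-binding domain that represses CYP7A1 and CYP8B1, had 354.0 in control and 729.5 in treated cells. It was 2.51-fold higher, and 2.06-fold in the deposited values, and 44 of 9128 genes had a higher difference. Its targets CYP7A1 and CYP8B1 were undetected on both arrays, so no difference in them could be measured. PPARGC1A, the coactivator PGC-1alpha, was 1.54-fold higher (1.32-fold in the deposited values), with 262.9 and 347.7. RARA, a retinoic acid receptor, was 1.77-fold lower (1.40-fold in the deposited values), with 287.8 and 206.2 at 1 of its 3 probes, the others not being detected. RXRA, the partner of most of these receptors, had -0.43 and stayed within 1.5-fold, as did NR2F1 (0.35), the oxysterol receptor NR1H3 (-0.30) and NR5A2 (-0.08), which promotes CYP7A1 expression. In the deposited values they had -0.38, 0.22, -0.23 and -0.03. NR1I3, known as CAR, which induces CYP2B6, was not detected at either of its 2 probes (0.816 and 0.334, 0.553 and 0.481), nor was PPARA, which induces CYP4A genes.

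Of 12 other regulators on the array, 9 were measured, with 2 higher, 1 lower, also in the deposited values, and a median of 0.19. CEBPB, a factor of the acute phase response, had 1317.1 in control and 2599.4 in treated cells, 2.08-fold higher (1.97-fold in the deposited values). NFE2L2, the antioxidant regulator NRF2, had 1665.4 and 2876.6, 1.79-fold higher (1.73-fold), while HMOX1, one of its known targets, was lower. CITED2 was 2.72-fold lower, and 1.73-fold in the deposited values. Within 1.5-fold, PROX1, a corepressor in liver, had the largest difference, 0.35 (0.22 in the deposited values). The liver factors CEBPA, HLF and FOXA1 had 0.21, 0.19 and 0.13. TEF, a clock-controlled factor that drives P450 genes in mouse liver, was detected in control only, at 162.8 and near the detection limit. It was at least 1.29-fold lower, or 1.09-fold in the deposited values, with no allowance for the single-probe SD.

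**Figure D5:**
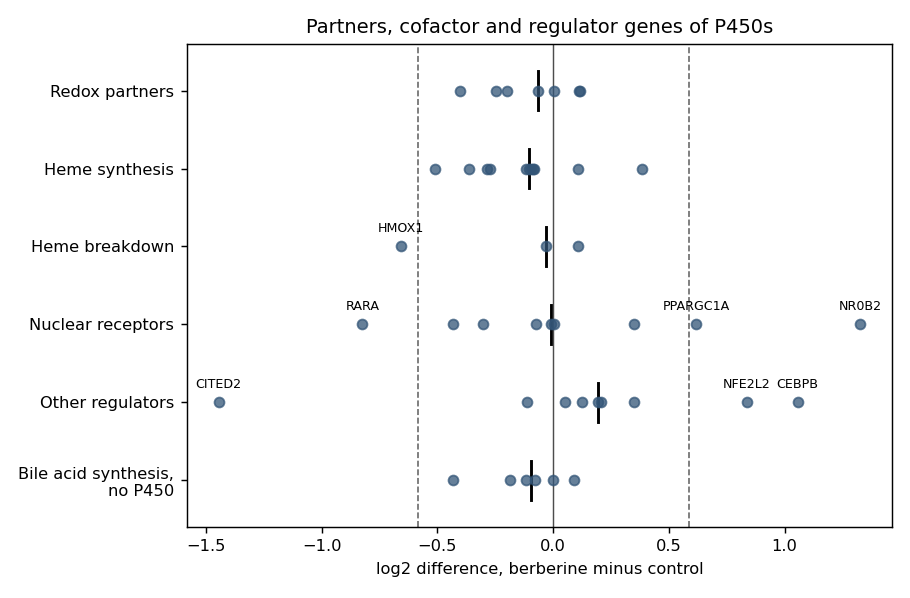
Log2 difference, berberine minus control (horizontal axis), of the measured genes in 6 lists of partners, cofactor enzymes and regulators of P450s, 1 point per gene, with POR among the redox partners. The black bars are list medians and the dashed lines mark 1.5-fold, beyond which NR0B2, CEBPB, NFE2L2 and PPARGC1A lie on the higher side and CITED2, RARA and HMOX1 on the lower.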

How the data were processed

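Biotin-labeled cRNA was hybridized to HumanHT-12 v4 BeadChip arrays, 1 array per group. RNA came from a Roche kit per the labels, whereas the study's methods name TRIZOL. The authors exported a non-normalized intensity and a detection p-value for each probe from GenomeStudio, whose version is not stated in the labels or methods used here. The deposited normalized intensity, on a linear scale, kept the within-array ranks and nearly equal sorted values (largest difference 0.103%), as quantile normalization without background subtraction would. Its method is not named.

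The non-normalized intensity was processed with neqc of limma 3.58.1 (R 4.3.3), that is, normexp background correction from the detection p-values, an offset of 16, quantile normalization and log2. Deposited values were used beside it, because background correction widens folds of dim probes. The other steps used Python 3.11.15, pandas 2.3.3, numpy 2.4.6 and matplotlib 3.10.9.

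The members were the genes whose platform symbol was CYP, a family number, a subfamily letter and a gene number, without the CYP1 family and CYP51A1, plus POR. Symbols of 30074 probes were updated by Entrez identifier and of 18 by transcript accession with RefSeq tables of GRCh38.p14, and 21 kept the platform name. The remaining 8 probes with several symbols and 17110 with none were left out of gene counts. A gene took the value of its brightest probe detected on both arrays (detection p under 0.01), and calls were differences over 1.5-fold, the fold part of the study's threshold. Its p-value part was not applied, since 1 array per group allows no p. Named genes were all members, and in other lists those over 1.5-fold and up to 4 further genes with the largest differences. Undetected genes of these lists were named after their values were seen. The members and gene lists were chosen with earlier results of these data known. With 1 array per group, no test was run, and the number of arrays limits the precision. The steps were checked on simulated data. Alternatives covered background correction, normalization, offset, detection filter and the choice of probe.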

Additional observations from a re-analysis of the deposited data

How the results depend on the processing

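All alternatives were planned, and they touched the calls more than the directions. The count of members over 1.5-fold lower was 1 (CYP4F3). It was 0 in the deposited normalized intensity, 0 with quantile normalization without background correction and 0 with an offset of 50. It was 2 with normexp and aligned medians (CYP4F3 and CYP27B1), 3 with an offset of 0 (CYP4F3, CYP27B1 and CYP11A1), 2 with genes detected on at least 1 array and 2 with no filter (CYP4F3 and CYP4V2). The count over 1.5-fold higher was 0, and 1 with no filter, CYP21A2, which was detected on neither array. The median of the measured members ran from -0.31 with genes detected on at least 1 array to -0.04 with no filter, and that of all genes from -0.02 to 0.00. Of 117 alternative values of single members, 113 stayed within the single-probe SD of the reported value. The other 4 were CYP11A1 (-0.28 and -0.28) and CYP27B1 (-0.24 and -0.25), in the deposited values and without background correction. Changing the detection filter left every value of a measured member as it was, and averaging detected probes changed only CYP20A1. The 113 therefore include many values that could not move. CYP4F3, the only member over 1.5-fold in the reported values, kept its sign. Signal over background limits these results, since most members were dim and 12 of the 13 measured ones rest on 1 detected probe.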

Other observations

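Enzymes of bile acid synthesis other than P450s were expressed even though CYP7A1, CYP8B1 and CYP7B1 were not detected. Of 8 such genes on the array, 6 were measured, with 0 over 1.5-fold in either direction and a median log2 difference of -0.10. AKR1D1, the 5-beta-reductase that acts after the first hydroxylation, read 10897.2 in control and 8085.7 in treated cells (normalized intensity), a difference of -0.43. AKR1C4, the next reductase, had 0.09. SLC27A5, which activates bile acids with coenzyme A, had -0.19 and the side chain oxidase ACOX2 had -0.12. BAAT, which joins bile acids to glycine or taurine, was not detected on either array (detection values 0.577 and 0.279), nor was CH25H, a cholesterol hydroxylase (0.731 and 0.816). The 5 pseudogene or antisense genes named after P450s that the rule did not take had 7 probes, and 0 of them were detected on either array.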
